A study of Sus scrofa with 6 samples.

Results

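The anaphase-promoting complex is the ubiquitin ligase that marks cyclins and securin for destruction, and the genes described here are its activators, inhibitors, dedicated ubiquitin-conjugating enzymes, 3 of its scaffold subunits and its substrate securin. The members were chosen by name: CDC20, FZR1, FBXO5, FBXO43, CDC27, CDC23, CDC16, UBE2C, UBE2S and PTTG1, 10 genes in all. Of these, 9 had values among the 19300 genes listed in any oocyte, and 8 had a mean of at least 1 FPKM, the level required for counts over genes. FPKM is the number of fragments scaled to transcript length and to the mapped fragments of a library, so it is a share of a library and not a number of molecules per oocyte. No value was found for UBE2S, whose gene ID matched no row, and it is not analysed here.

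The libraries came from single pig (Sus scrofa) oocytes, 3 of the BCB-negative and 3 of the BCB-positive class, all still holding the germinal vesicle. BCB, brilliant cresyl blue, is a dye that growing oocytes reduce to a colourless form, so BCB-positive oocytes are generally taken as those that have finished growth. Both classes were taken from antral follicles of 3 to 6 mm, had at least 3 layers of cumulus cells, lost their cumulus cells and zona pellucida to enzyme treatment, and were lysed without maturation culture. Breed, age and animal of origin are not stated in the labels, so each class was treated as 1 sample of 3 cells, and class differences are described without a test.

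The expected counts of a library summed to between 7122749 and 9238987. BCB-positive oocyte 3 stood apart: its log2 values correlated with those of the other oocytes at a mean of 0.874 across genes, against 0.905 to 0.915 for the rest, and its FPKM summed to 668430, against 784781 to 811744. The oocyte markers had summed FPKM of 19297 to 30222 in BCB-negative and 17891 to 28481 in BCB-positive oocytes, led by the zona pellucida genes ZP3 and ZP4. Not all 14 oocyte markers were high: NOBOX averaged 0.37 FPKM, NLRP5 1.06 FPKM and DAZL 2.80 FPKM. Of 17 cumulus and granulosa markers, 12 were listed in any oocyte, with summed FPKM of 153 to 264 in BCB-negative and 138 to 255 in BCB-positive oocytes. KITLG (108 to 239 FPKM) and INHBA (19.8 to 31.9 FPKM) made up most of that sum. SERPINE2 reached 4.35 FPKM, STAR 1.79 FPKM and INHA 1.54 FPKM, whereas CYP19A1 was at most 0.18 FPKM. FSHR, AMHR2 and FOXL2 were listed in no oocyte. Of 9 theca and stroma markers 6 were listed, led by TAGLN at 25.5 to 57.9 FPKM and DCN at up to 3.33 FPKM. Of 8 blood and endothelial markers 3 were listed, led by PECAM1 at up to 3.76 FPKM and CD14 at up to 1.65 FPKM. A marker whose symbol or gene ID found no match also counted as not listed, so this need not mean that its transcript was absent.

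The complex works only when an activator, CDC20 or FZR1, brings substrates to it. FZR1, also called CDH1, is the activator that keeps cyclin B low in the prophase-arrested mouse oocyte, whereas CDC20 drives the metaphase-anaphase transitions under the control of the spindle checkpoint. FBXO5 (EMI1) and FBXO43 (EMI2) block the ligase, and FBXO43 is the cytostatic factor component that holds the egg at its second metaphase until fertilisation. UBE2C starts ubiquitin chains on substrates and UBE2S extends them, and PTTG1, or securin, restrains the protease separase until the complex destroys it.

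Both activator transcripts were lower in BCB-positive oocytes, and the initiating enzyme UBE2C was higher, with no overlap between the classes, though under size factor scaling UBE2C did overlap. None of these 3 differences reached 1.5-fold with the values as deposited. The inhibitors, securin and the scaffold subunits overlapped between the classes. Of the 8 members compared, 2 were lower and 1 higher without overlap. Among all 11493 genes compared, 4.03% were lower without overlap, 7.44% were higher and 11.5% were either. With at least 1.5-fold added to the rule, the shares of all genes were 2.66% lower and 5.75% higher, against 0 members in either direction. With 8 members, single genes set these counts. Without BCB-positive oocyte 3 the members' counts stayed at 2 lower and 1 higher, and the shares of all genes were then 7.65% and 11.5%.

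**Figure D1:**
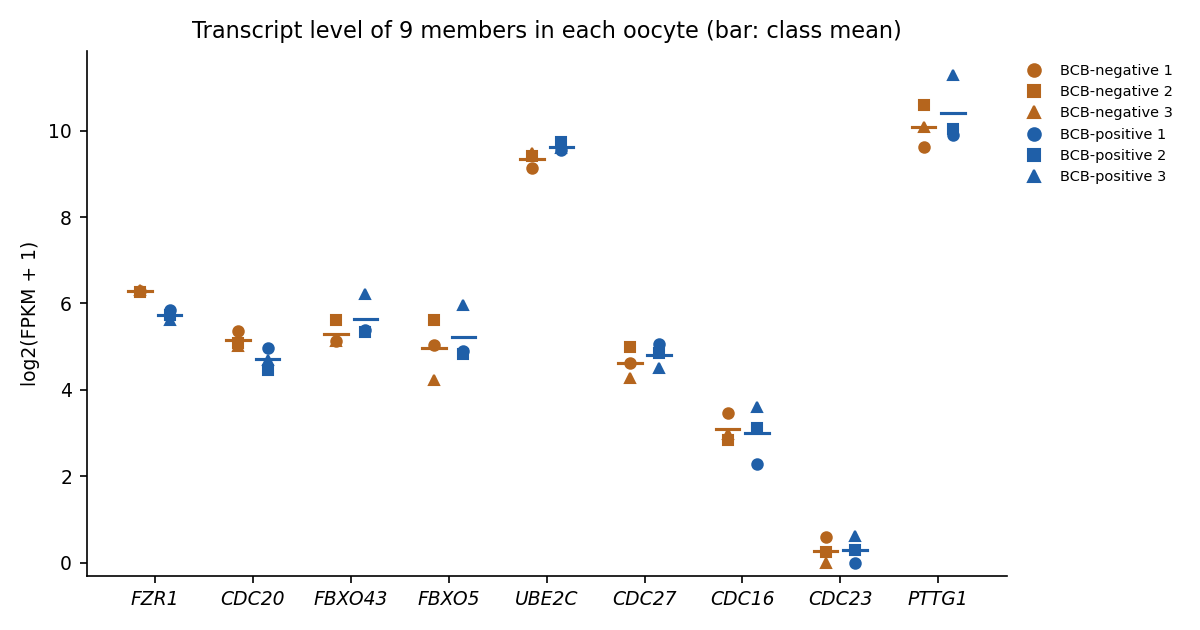
Level of the 9 members with values in each oocyte as log2(FPKM + 1), with BCB-negative oocytes in brown, BCB-positive oocytes in blue, symbols for oocytes 1 to 3 and a bar for each class mean. FZR1 and CDC20 lie lower in all 3 BCB-positive oocytes, UBE2C lies higher in them with these deposited values though not under size factors, and BCB-positive oocyte 3 is the highest point for PTTG1, FBXO5 and FBXO43.

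FZR1 was at 77.6, 75.8 and 77.8 FPKM in the BCB-negative class (oocytes 1, 2 and 3) and 56.8, 52.1 and 47.9 FPKM in the BCB-positive class (likewise oocytes 1, 2 and 3). The BCB-negative values lay within a few FPKM of each other and all above the highest BCB-positive value. The class means were 77.1 ± 1.13 and 52.2 ± 4.43 FPKM (SD, n = 3 oocytes each). On the log2(FPKM + 1) scale, which understates differences of low genes, the BCB-positive minus BCB-negative difference was -0.56, or 1.47-fold lower, with a pooled SD between oocytes of a class of 0.09. Only 0.174% of the genes compared had a smaller SD, while 10.3% had a difference at or below that of FZR1. Divided by median-of-ratios size factors, FZR1 differed by -0.66 and met the 1.5-fold rule, as it did without BCB-positive oocyte 1, at -0.62.

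The value of FZR1 is uncertain because its reads were divided with another listed gene. Its expected counts were not whole: 834.38, 821.10 and 787.05 in the BCB-negative and 631.81, 601.14 and 632.30 in the BCB-positive oocytes. Added to the counts of gene 100626100, which has no symbol in the name table, they gave whole numbers in all 6 oocytes within a tolerance of 0.011 counts: 1725, 1672 and 1610, and then 1258, 1245 and 1236. That was the case for 1 gene of all those with fractional counts. The listed transcripts of both genes have nearly the same length, 1482 bases for FZR1 and 1483 for gene 100626100, and FZR1 held 48.3% to 51.2% of their joint counts. The sum of both, chosen after seeing the data, was 160, 154 and 159 FPKM in the BCB-negative class and 113, 108 and 93.6 FPKM in the BCB-positive class. The sum differed by -0.59 (SD 0.10), again without overlap and just past 1.5-fold. Since the split was nearly even in every oocyte, FZR1 alone and the sum carry the same information on direction, and how much of either belongs to FZR1 cannot be told apart.

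CDC20, the activator of anaphase, was at 39.9, 33.0 and 31.2 FPKM in the BCB-negative class and 30.1, 21.1 and 24.9 FPKM in the BCB-positive class. The classes were close to each other, with BCB-negative oocyte 3 and BCB-positive oocyte 1 only about 1 FPKM apart. The class means were 34.7 ± 4.59 and 25.4 ± 4.49 FPKM (SD, n = 3 oocytes each). Its log2 difference was -0.44 (SD 0.22), or 1.36-fold lower, and 14.7% of the genes compared had a difference at or below it. Its summed expected counts were 1115 in the BCB-negative class (exact Poisson 95% interval 1051 to 1182) and 919 in the BCB-positive class (861 to 980). Such intervals cover counting error only, since amplified reads without molecular identifiers are not independent molecules.

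Both activators were lower in the BCB-positive class, and their ratio within an oocyte did not separate the classes. FZR1 stood at 1.95, 2.30 and 2.50 times CDC20 in BCB-negative oocytes and at 1.89, 2.46 and 1.92 times in BCB-positive oocytes. This ratio per length does not depend on the depth of a library. Its mean log2 difference was -0.11 (SD 0.19), smaller than the spread between oocytes. With gene 100626100 added to FZR1 the ratio ran from 3.76 to 5.11.

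Of the inhibitors, FBXO43 was at 34.3, 48.4 and 33.8 FPKM in the BCB-negative class and 40.8, 39.8 and 73.2 FPKM in the BCB-positive class. BCB-negative oocyte 2 lay above 2 of the BCB-positive oocytes, and BCB-positive oocyte 3 lay above all others. The log2 difference was 0.35 (SD 0.40) over the 6 oocytes and 0.07 without BCB-positive oocyte 3. It was 0.52, with no overlap of the classes, when BCB-negative oocyte 2 was left out. In that setting 12% of all genes were higher without overlap, against 7.44% with all 6 oocytes.

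FBXO5 was at 32.0, 48.2 and 17.7 FPKM in the BCB-negative class and 28.9, 27.3 and 61.6 FPKM in the BCB-positive class. The lowest and the second highest values were both in BCB-negative oocytes, and the highest was again in BCB-positive oocyte 3. Its log2 difference of 0.27 (SD 0.67) was smaller than the SD and was -0.10 without BCB-positive oocyte 3. FBXO43 was above FBXO5 in 6 of 6 oocytes, by a ratio of 1.00 to 1.91. The ratio was 1.07, 1.00 and 1.91 in BCB-negative and 1.41, 1.46 and 1.19 in the BCB-positive class. The log2 ratio differed by 0.09 (SD 0.36), so the inhibitors' balance did not separate the classes either.

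**Figure D2:**
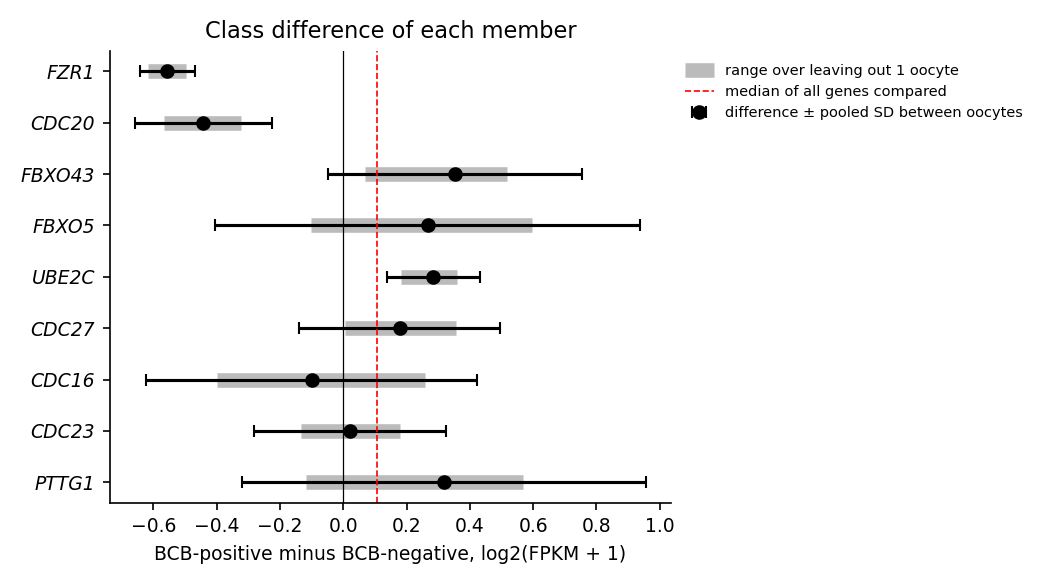
BCB-positive minus BCB-negative difference of each member in log2(FPKM + 1), with the pooled SD within a class as a bar, the range over leaving out 1 oocyte in grey and the median of all genes compared as a dashed line. FZR1, CDC20 and UBE2C lie more than 1 SD from 0, and the grey ranges of FBXO5, CDC16, CDC23 and PTTG1 cross 0.

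The activators and inhibitors were then set against each other, a comparison chosen after seeing the values. The summed FPKM of CDC20 and FZR1 was 1.77, 1.13 and 2.12 times that of FBXO5 and FBXO43 in BCB-negative oocytes. In BCB-positive oocytes it was 1.25, 1.09 and 0.54 times. BCB-negative oocyte 2 lay below BCB-positive oocyte 1, so the classes overlapped, and BCB-positive oocyte 3 was the only oocyte with more inhibitor than activator transcript. The log2 difference was -0.83 (SD 0.56) over the 6 oocytes and -0.46 without BCB-positive oocyte 3. With gene 100626100 added to FZR1 the ratio was 3.02, 1.94 and 3.69 in BCB-negative and 2.05, 1.92 and 0.88 in BCB-positive oocytes.

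**Figure D3:**
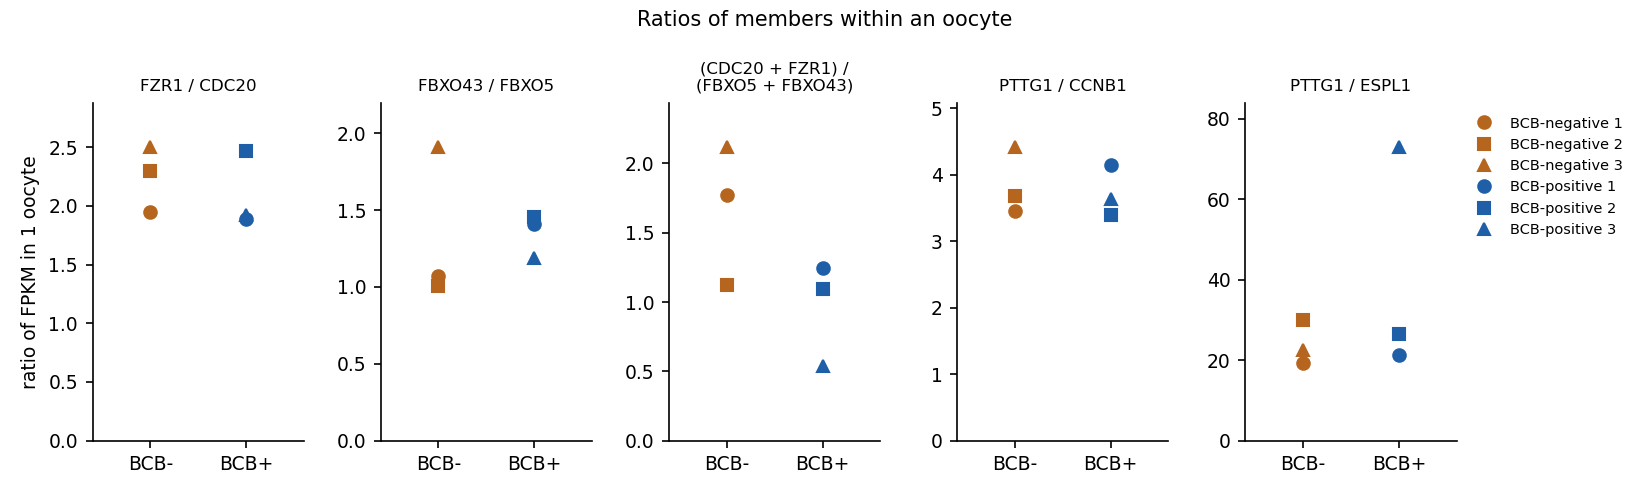
Ratio of FPKM within an oocyte for pairs or sums of genes, with one panel per ratio, BCB-negative oocytes at left in brown and BCB-positive oocytes at right in blue, on linear axes from 0. The classes overlap in each panel. PTTG1 to CCNB1 stays between 3.40 and 4.41, and PTTG1 to ESPL1 is far higher in BCB-positive oocyte 3 than elsewhere.

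UBE2C, the enzyme that places the first ubiquitins, was at 561, 676 and 717 FPKM in the BCB-negative class and 745, 850 and 777 FPKM in the BCB-positive class. Each BCB-positive oocyte was above each BCB-negative one, BCB-negative oocyte 3 being the nearest. The class means were 651 ± 80.8 and 791 ± 54.0 FPKM (SD, n = 3 oocytes each), a log2 difference of 0.28 (SD 0.15), or 1.22-fold higher. The median difference of all genes compared was 0.11 with the values as deposited and 0.02 with size factors, and 37.0% of genes had a difference at or above that of UBE2C. Under size factors UBE2C differed by 0.18 and the classes overlapped, with BCB-positive oocyte 3 at 683 and BCB-negative oocyte 3 at 731. The split of all genes moved with that scaling too. Without overlap, 855 genes were higher and 463 lower as deposited, and 677 were higher and 618 lower with size factors.

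PTTG1, securin, was the most abundant member, at 782, 1541 and 1077 FPKM in the BCB-negative class and 960, 1052 and 2492 FPKM in the BCB-positive class. BCB-positive oocyte 3 was 1.62 times the next highest oocyte, which was BCB-negative oocyte 2, and the other 2 BCB-positive oocytes lay inside the BCB-negative range. The log2 difference was 0.32 (SD 0.64), and -0.12 without BCB-positive oocyte 3. By mean FPKM, PTTG1 ranked 65 and UBE2C 157 among the 11493 genes compared.

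Securin and cyclin B1 (CCNB1), which the complex destroys together at anaphase, varied between oocytes by like factors. PTTG1 spanned 3.19-fold and CCNB1 3.03-fold from the lowest to the highest oocyte, whereas their ratio spanned 1.30-fold. CCNB1 was at 227, 420 and 244 FPKM in the BCB-negative class and 232, 310 and 687 FPKM in the BCB-positive class, so PTTG1 was 3.45, 3.67 and 4.41 times CCNB1 in the former and 4.14, 3.40 and 3.63 times in the latter. The ratio differed by -0.04 (SD 0.17) on the log2 scale. Securin against separase (ESPL1), the protease it restrains, gave another picture. Separase varied less, from 34.2 to 51.2 FPKM, and the ratio of PTTG1 to it was 19.2, 30.1 and 22.4 in BCB-negative and 21.4, 26.6 and 72.9 in BCB-positive oocytes. Both ratios were chosen after the values were seen.

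Among the scaffold subunits, CDC27, which receives the activator's tail, was at 23.5, 30.6 and 18.5 FPKM in the BCB-negative class and 32.3, 28.0 and 21.6 FPKM in the BCB-positive class. CDC16, a neighbouring repeat subunit, was at 10.0, 6.18 and 6.89 FPKM in the BCB-negative class and 3.85, 7.67 and 11.1 FPKM in the BCB-positive class. The highest and lowest CDC16 values both fell in the BCB-positive class. The log2 differences were 0.18 (SD 0.32) for CDC27 and -0.10 (SD 0.52) for CDC16. Neither exceeded its spread.

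CDC23, a scaffold subunit of the same repeat family, was close to the floor of detection. It had 11, 4 and 0 counts in BCB-negative and 0, 5 and 14 counts in BCB-positive oocytes, or at most 0.53 FPKM. The class sums were 15 counts (exact Poisson 95% interval 8.40 to 24.7) and 19 counts (11.4 to 29.7). A count of 0 allows up to 3 counts, which is on the listed length 0.146 FPKM for BCB-negative oocyte 3 and 0.133 FPKM for BCB-positive oocyte 1. No class difference was detectable for CDC23 at this depth. CDC23 overlaps KIF20A in the later pig assembly used for names, and KIF20A was at 11.2 to 46.6 FPKM. The counts of CDC23 were whole, so none were divided as those of FZR1 were.

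The order of the members' levels, which FPKM sets per length, was PTTG1, UBE2C, FZR1, FBXO43, FBXO5, CDC20, CDC27, CDC16 and CDC23 by mean over the 6 oocytes. PTTG1 was above UBE2C, UBE2C above FZR1, CDC27 above CDC16 and CDC16 above CDC23 in 6 of 6 oocytes. Neighbours in the middle were not separated by their spread: FBXO5 was above CDC20 in 3 of 6 oocytes and CDC20 above CDC27 in 4 of 6. BCB-positive oocyte 3 held the highest value of 4 of the 8 members compared, PTTG1, FBXO5, FBXO43 and CDC16. The matching share over all genes is not given here, so this count is not set against a background. That oocyte also had the most genes at 1 FPKM or more, 11751 against 10729 to 11157. The members' median difference was 0.22 over the 6 oocytes, against 0.11 for all genes. It was -0.11 without BCB-positive oocyte 3, against 0.05 for all genes, and -0.05 without BCB-negative oocyte 3.

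More than 1 transcript was listed for CDC27, FBXO5 and PTTG1. For CDC27 a 5502-base and a 5563-base transcript took nearly all of the estimate. The 5502-base form held 100%, 100% and 37.7% in BCB-negative and 100%, 28.6% and 0% in BCB-positive oocytes. These shares ran from none to all within the BCB-positive class, and the lengths of the forms differ little, so the split between them is uncertain. The share of the 2122-base transcript of FBXO5 was 4.00%, 18.4% and 0% in BCB-negative and 27.9%, 13.0% and 1.71% in BCB-positive oocytes, again overlapping. PTTG1 was steadier: of its 6 listed transcripts the 730-base form led in every oocyte, with 60.6%, 63.4% and 70.5% in BCB-negative and 61.5%, 63.0% and 55.4% in BCB-positive oocytes.

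**Figure D4:**
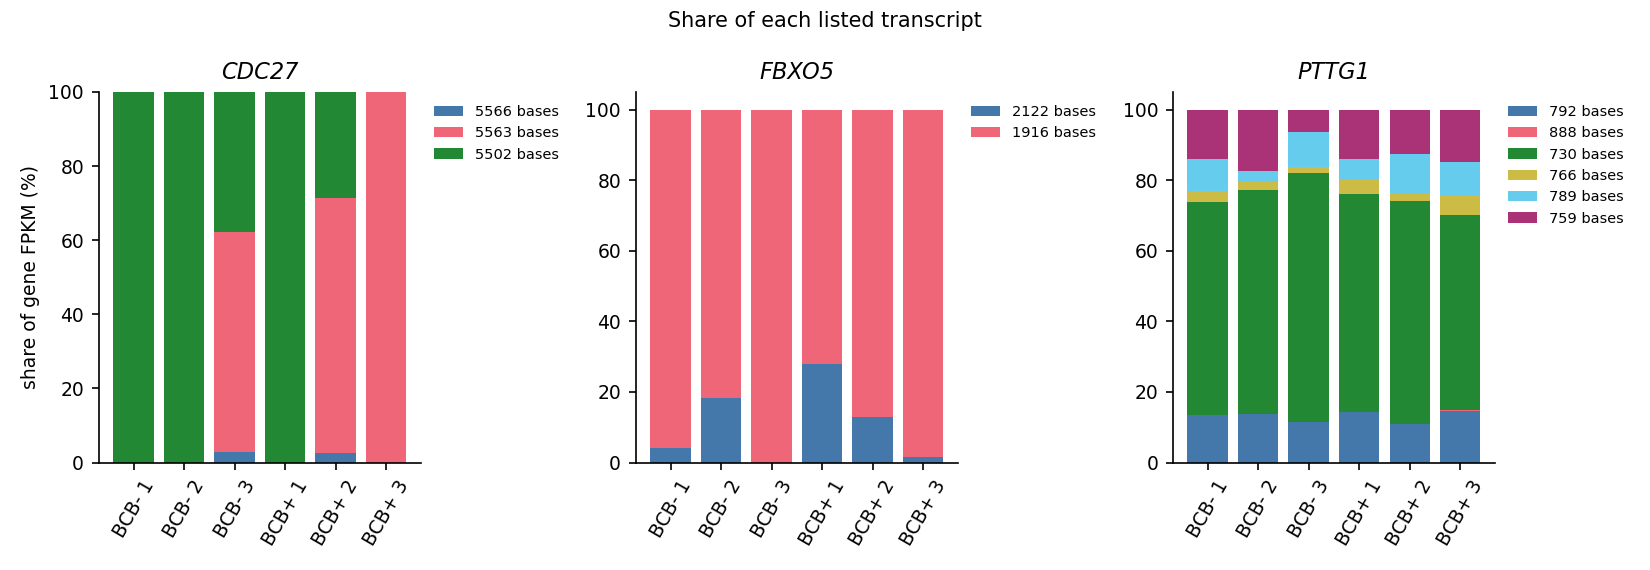
Share of a gene's FPKM in percent taken by each listed transcript, named by its length, with one stacked bar per oocyte for CDC27, FBXO5 and PTTG1. The leading CDC27 transcript changes between oocytes of the same class, and the 730-base PTTG1 transcript leads in all 6.

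Of the 11 other subunits of the complex, 10 had values and 8 were compared. Without overlap 0 of the 8 were higher and 0 lower, where 7.44% and 4.03% of all genes were, so with 8 genes a count of 0 is near the background. Their median difference was 0.17, or -0.12 without BCB-positive oocyte 3. The subunits spanned a wide range of levels: ANAPC11, the RING subunit, averaged 182 FPKM and ANAPC15 133 FPKM, whereas ANAPC2, the cullin subunit that ANAPC11 binds, averaged 0.09 FPKM. ANAPC4 was also below the level required, at 0.30, 0.13 and 0.10 FPKM in the BCB-negative class and 1.09, 2.09 and 1.52 FPKM in the BCB-positive class. Its classes did not overlap, on 2 to 6 counts against 22.9 to 45.6, and fractional counts mean that its reads were partly divided with other features. A low value describes the listed transcript model. CDC23, ANAPC2 and ANAPC4 were low beside ANAPC11 and ANAPC15, the only subunits over 100 FPKM. They were also below the remaining subunits with values, which averaged from 5.15 FPKM (ANAPC5) to 38.1 FPKM (ANAPC16). ANAPC2, ANAPC4, ANAPC5, ANAPC11, ANAPC15 and ANAPC16 were named here after their values were seen.

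The list of genes of the spindle checkpoint, under whose control CDC20 acts, had 6 of 9 genes with values compared. Of these, 1 was higher without overlap and at least 1.5-fold and 0 were lower, against 5.75% and 2.66% of all genes. That gene was MAD2L1, at a log2 difference of 0.81 (SD 0.70), and the count became 0 without BCB-negative oocyte 3, where MAD2L1 was lowest. By the same rule 8.82% of all genes were then higher. Leaving out BCB-positive oocyte 1 or 2 made the count 2, with 13.7% or 10.3% of all genes higher. The list's median was 0.39, and -0.17 without BCB-positive oocyte 3.

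Of 21 known substrates of the complex other than securin, 3 were higher in BCB-positive oocytes without overlap and at least 1.5-fold and 0 were lower, where 5.75% and 2.66% of all genes were. The class mean was higher for 17 and lower for 4 of them, and it was higher for 58.0% of all genes. The 3 were SGO1, which protects centromeric cohesin (difference 1.18, SD 0.54), and the cyclins CCNB3 (0.95, SD 0.53) and CCNB2 (0.93). The count was 1, SGO1, without BCB-positive oocyte 3, where 7.19% of all genes were higher by this rule. It was 5 to 6 without BCB-negative oocyte 2 or BCB-positive oocyte 1 or 2. The shares of all genes also rose then, to 8.74%, 13.7% and 10.3% in that order. The median was 0.40 over the 6 oocytes and 0.24 without BCB-positive oocyte 3, against 0.11 and 0.05 for all genes. The split of 17 higher and 4 lower also depended on that oocyte. Without it CCNA2 (-0.16), CCNB1 (-0.09), RRM2 (-0.05) and ANLN (-0.07) became lower, and FOXM1 (0.01) became higher.

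Genes that regulate the EMI proteins, together with separase, had 9 of 10 with values compared, 0 of them without overlap in either direction, where 11.5% of all genes were, and a median of 0.11. Of the 8 other ubiquitin-activating, conjugating and deubiquitinating enzymes compared, 1 was higher without overlap and 0 lower, against 7.44% and 4.03% of all genes. That gene was UBA6, at a log2 difference of 0.46 (SD 0.18). With at least 1.5-fold added, 0 were apart, again few genes against shares of 5.75% higher and 2.66% lower. Their median was 0.28, or 0.11 without BCB-positive oocyte 3. Among the role lists and the members, the median without BCB-positive oocyte 3 was lower than with it, except for the EMI regulators and separase, at 0.14 against 0.11.

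**Figure D5:**
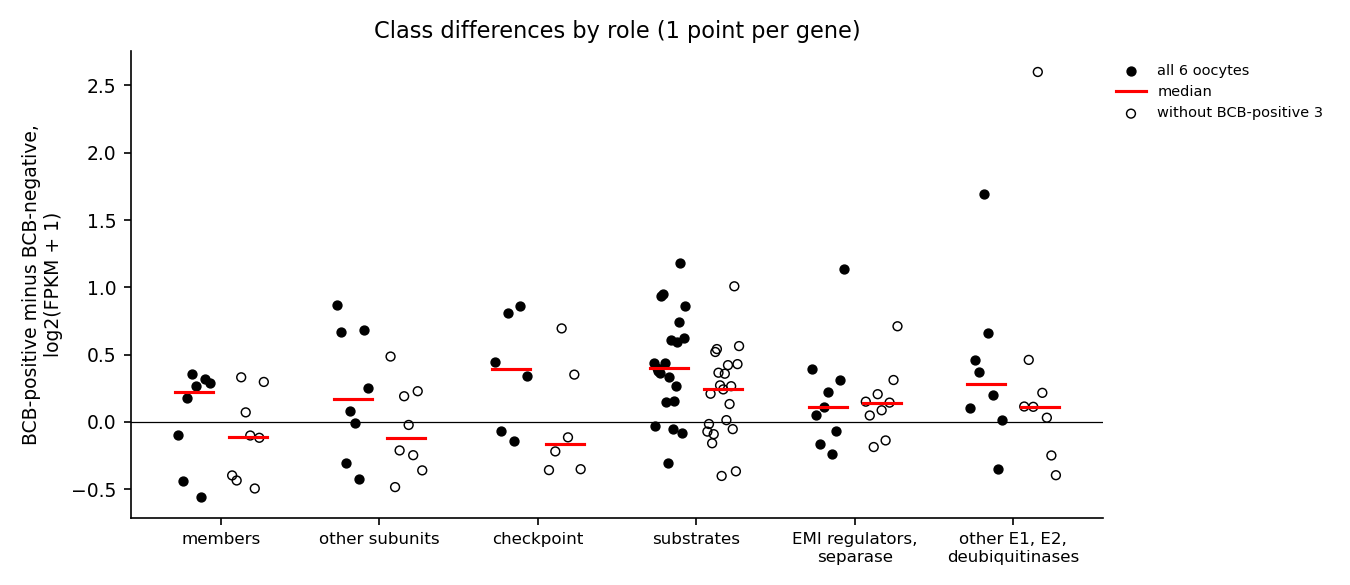
BCB-positive minus BCB-negative differences in log2(FPKM + 1) of genes averaging at least 1 FPKM, with one point per gene by role, filled for all 6 oocytes and open without BCB-positive oocyte 3, and red bars for medians. The member median moves from 0.22 to -0.11 and the substrate median from 0.40 to 0.24 when that oocyte is left out.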

How the data were processed

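Single oocytes were profiled by RNA sequencing after priming with a poly(dT) stretch of 24 nt and PCR amplification, per the labels' protocols. BWA, Cufflinks and RSEM are listed in the submitters' processing notes, with the build Sscrofa10.2 and without role or version. Expected counts in the deposited files are estimated counts per gene and transcript that split shared reads. FPKM in the deposited files is the authors' value scaled to length and depth, with 2 decimals. A gene not listed for an oocyte was taken as 0. Symbols came from a RefSeq table of Sscrofa11.1, in which 13936 of 19300 gene IDs matched, used for names and for which genes overlap, with no coordinates or sequences printed. Class means of log2(FPKM + 1) were compared over 11493 genes averaging 1 FPKM or more. With no animal named, no p-value was computed, and classes are described by order, difference and SD. The members and lists were chosen with earlier results of these data known. Named genes were all members, up to 2 genes per direction from each role list among those without overlap and at least 1.5-fold apart, and the 2 genes of highest mean FPKM in each marker list. Other genes were named after their values were seen. Alternatives were a pseudocount of 0.1, size factors, CPM, ratios of class means, other filters and leaving out each oocyte. Calculations used Python 3.11.15, numpy 2.4.6, pandas 2.3.3 and scipy 1.17.1. The order rule was run on simulated data with changes larger than the members' differences. The simulated spread between oocytes, apart from counting error, was below the median SD of all genes. That run does not show how the rule performs at the members' differences.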

Additional observations from a re-analysis of the deposited data

How the results depend on the processing

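FZR1 and CDC20 stayed lower without overlap under every alternative run, from -0.66 to -0.50 for FZR1 and from -0.57 to -0.32 for CDC20. An oocyte left out cannot undo such an order, and none of the alternatives covers counting error. For CDC20 the nearest oocytes were BCB-negative oocyte 3 at 31.2 FPKM (319 counts) and BCB-positive oocyte 1 at 30.1 FPKM (339 counts). With size factors the members higher without overlap numbered 0 in place of 1, since UBE2C then overlapped, and the members lower and at least 1.5-fold apart numbered 1 in place of 0, through FZR1 at -0.66. Of all genes, 5.89% were then higher and 5.38% lower without overlap, and 3.7% were lower by 1.5-fold. Leaving out 1 oocyte gave 1 to 2 members higher, 2 lower and 0 to 1 lower by 1.5-fold, and a median over members from -0.11 to 0.34. The median of the EMI regulators and separase was 0.01 with size factors and up to 0.23 without BCB-positive oocyte 1. With 1 oocyte left out, genes higher by 1.5-fold without overlap numbered 0 to 1 among the other subunits (0 with all oocytes), 0 to 2 among checkpoint genes (1), 1 to 6 among substrates (3), 0 to 1 among EMI regulators (0) and 0 to 1 among the other ubiquitin enzymes (0), where a pseudocount of 0.1 or CPM also gave 1. Genes lower by this rule numbered 0 to 1 among the other subunits and 0 in the other role lists. Over all genes, 661 were higher and 306 lower by 1.5-fold without overlap, and 411 and 192 at a mean of at least 5 FPKM. With 1 oocyte left out, where fewer oocytes have to be ordered, 826 to 1574 (7.19% to 13.7%) were higher and 506 to 795 (4.4% to 6.92%) lower. The ratios of FZR1 to CDC20 and of FBXO43 to FBXO5 moved by less than the SD under each alternative. The planned ratio of UBE2S to UBE2C could not be computed without values for UBE2S. No paired analysis was possible because the replicate numbers name single oocytes and no result comes from a test. CDC23 and ANAPC2 had at most 14 and 3 counts in an oocyte, too few to show a class difference.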
